A study of Mus musculus with 2 samples.

Results

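The 10 genes described here encode subunits of voltage-gated calcium channels: the pore-forming genes Cacna1a, Cacna1b, Cacna1c, Cacna1d, Cacna1e, Cacna1g, Cacna1h and Cacna1i, and the auxiliary α2δ genes Cacna2d1 and Cacna2d3. They are a list of named genes, 10 of the 31053 genes counted. They were chosen by name rather than by a threshold on measured values, but with earlier results of these data known. They were measured by single nucleus RNA sequencing in nuclei sorted for GFP and the DNA dye DRAQ5 of the cortex on the injured side. The mice were Atf3-CreER::Sun1-sfGFP (Atf3-CreER:+/wt; SUN-SfGFP:+/wt, over 7 weeks of age), taken at 7 days after closed-skull mild traumatic brain injury (mTBI) and given tamoxifen at 4 and 5 days post injury (dpi). In these mice Cre is made from the Atf3 locus, so a nucleus carries GFP on its envelope if its cell expressed Atf3, an injury-induced transcription factor, while tamoxifen was present. Every group below carries both alleles, the injury and tamoxifen, and no nuclei of uninjured mice or of cells without GFP are in the files used here, so no value below is a change after injury.

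The 2 libraries, 1 pool of 4 mice each, are called the male and the female library by their titles and the deposited table; a sex field of the female library's label reads male. The sex of the pool, its library and its depth cannot be told apart. The male library has a median of 3572 UMIs (unique molecular identifiers, here counted RNA molecules) per nucleus over the neuron labels and the female library 8519. Levels are in CPM: the UMIs of a gene were summed over the nuclei of a population in 1 library and scaled to a total of 1000000 UMIs. Where a pair of values is given, the male library comes first. The populations are the 9 deposited neuron labels with at least 50 nuclei (2499 nuclei), the 395 nuclei deposited as Unknown, and 4028 nuclei labelled Micro-PVM (microglia and perivascular macrophages), together 6922 of 8171 labelled nuclei. The excitatory labels are L2/3 IT CTX-1 (612 nuclei), L2/3 IT CTX-2 (154), L4/5 IT (171), L5 PT (642), L6 IT (188) and L6 CT (85), and the inhibitory labels are Pvalb (269), Sst (317) and Vip (61). IT, PT and CT stand for neurons that project within the telencephalon, to the pyramidal tract and to the thalamus. The libraries share 1 cell barcode.

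The labels were checked against marker genes. Gad2, which makes GABA, reached 219 to 657 CPM in the inhibitory labels and at most 30.1 CPM in the excitatory ones. Pvalb itself was at or under 1.58 CPM in the Pvalb label and Sst at or under 3.77 CPM in the Sst label, so these populations go by their deposited names without their defining transcript. In L6 IT the 5 inhibitory markers summed to 346 and 149 CPM and the 4 excitatory ones to 221 and 173 CPM. The 4 layer V markers summed to 108 and 132 CPM in L5 PT, 110 and 128 CPM in L6 CT and 373 and 350.0 CPM in the Unknown nuclei, so they did not single out L5 PT. The Unknown nuclei held the neuronal gene Snap25 at 505 and 414 CPM, Slc17a7 at 222 and 137 CPM, Bcl11b at 356 and 335 CPM, Prox1 at 239 and 235 CPM, the interneuron marker Adarb2 at 2102 and 1799 CPM (4560 and 4567 CPM in Vip) and Gad2 at 16.0 and 13.2 CPM. No cell type is given to them here. A list of 6 microglial markers summed to 1.61 to 9.62% of their Micro-PVM level in the neuron labels and Unknown nuclei, the highest being L2/3 IT CTX-2 of the female library. L2/3 IT CTX-2 and L6 IT were the shallowest neuron labels, with medians of 1506 and 1800 UMIs in the male library and 1921 and 2708 in the female library.

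A voltage-gated calcium channel opens when the membrane is depolarized and lets calcium into the cell. Its pore is a single α1 protein, and the choice of α1 gene sets the channel type. The P/Q-type (Cacna1a) and N-type (Cacna1b) channels trigger transmitter release at synapses, and the R-type channel (Cacna1e) acts in dendrites, spines and terminals. L-type channels (Cacna1c, Cacna1d) couple calcium entry to gene transcription, and T-type channels (Cacna1g, Cacna1h, Cacna1i) open near rest and support burst firing. The α2δ proteins bind the pore from outside and promote its traffic to the surface, and the product of Cacna2d1 is the main target of gabapentin.

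Of the 10 genes 9 differed among the 9 neuron labels, where 35.8% of all genes tested did. The labels were mapped from these same counts, so differences among them are partly built in. All 10 had UMIs in neurons, though Cacna1h had fewer there, relative to all UMIs, than barcodes outside nuclei. Summed over the 10 genes, the neuron labels held 3685 and 3457 CPM, from 2256 and 2483 CPM in Pvalb to 4717 and 4449 CPM in Sst. The Unknown nuclei were above every neuron label in both libraries, at 5939 and 6443 CPM. At 2300 UMIs per nucleus, a neuron held UMIs of 4.04 and 3.83 of the 10 genes on average, a Pvalb nucleus 2.66 and 2.69, and an Unknown nucleus 5.38 and 5.40. Per length of gene, as CPM per 100 kb of gene span over all neuron labels, the order of levels began with Cacna1a (252 ± 5.16, SD, n = 2 libraries), Cacna1c (159 ± 9.83) and Cacna1b (146 ± 8.23). Cacna1c and Cacna1b lay within the sum of their SDs. Then came Cacna2d3 (85.2 ± 9.22), Cacna2d1 (74.7 ± 18.5), Cacna1e (72.5 ± 8.67), Cacna1i (69.1 ± 8.32) and Cacna1d (56.6 ± 4.33). Each neighbouring pair of these 5 also lay within the sum of their SDs. It ended with Cacna1g (20.2 ± 1.46) and Cacna1h (7.52 ± 1.85). Introns were counted, so long genes gather more UMIs, and levels of different genes are compared only on that scale.

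**Figure D1:**
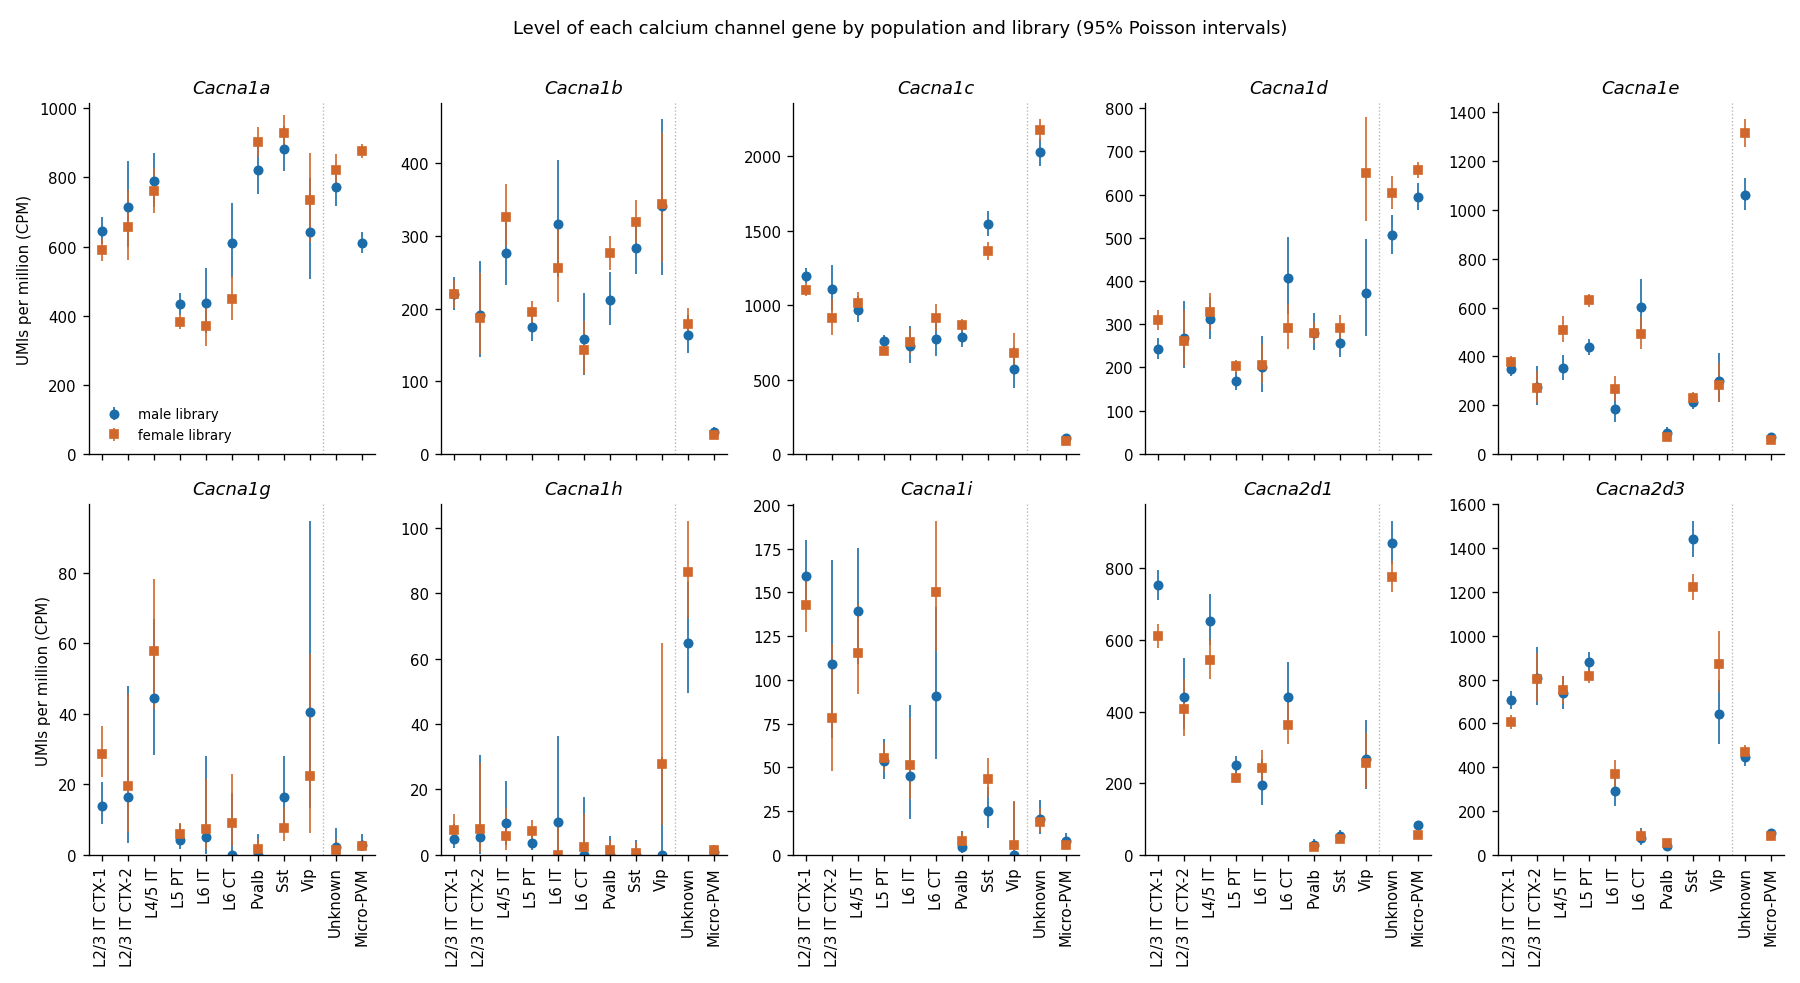
Level of each of the 10 genes (CPM, linear axis from 0) in the 9 neuron labels and, right of the dotted line, the Unknown and Micro-PVM nuclei. Circles are the male and squares the female library, with exact 95% Poisson intervals that cover counting error only. Cacna2d3 was highest in Sst (1439.6 and 1221 CPM) and lowest in Pvalb (37.8 and 55.7 CPM), and Cacna1h stood out in the Unknown nuclei (64.9 and 86.4 CPM).

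Cacna1a, the P/Q-type pore (chr8:84388440-84640246, plus strand, GRCm38), was highest in the interneurons Sst (882 and 929.8 CPM) and Pvalb (822 and 902 CPM). It was lowest in L5 PT (432 and 383 CPM) and L6 IT (437 and 370.2 CPM). The other labels lay between, from L6 CT (611 and 449 CPM) and L2/3 IT CTX-1 (644 and 589.6 CPM) to L4/5 IT (789 and 760.4 CPM). Sst was above Pvalb within each library, but their ranges over the 2 libraries overlapped, as did those of L5 PT and L6 IT. Micro-PVM nuclei held 612 and 876 CPM of it, more than L5 PT and L6 IT in both libraries, and level with L6 CT in the male one. Astrocytes (179 and 186 CPM), oligodendrocytes (148 and 152 CPM) and VLMC (vascular and leptomeningeal cells, 82.2 and 117 CPM) held less.

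Cacna1b, the N-type pore (chr2:24603887-24763152, minus strand), varied over about the same range of folds as Cacna1a. It reached 341 and 344 CPM in Vip, 277 and 327 CPM in L4/5 IT and 284 and 319 CPM in Sst, against 158 and 144 CPM in L6 CT and 175 and 195 CPM in L5 PT. Every neuron label was above Micro-PVM (29.7 and 26.0 CPM) in both libraries. Cacna1e, the R-type pore (chr1:154390731-154884501, minus strand), spread far more widely. It was high in L6 CT (602 and 491 CPM) and L5 PT (437 and 630.2 CPM), middling in Sst (215 and 229 CPM) and lowest in Pvalb (85.1 and 70.2 CPM), close to Micro-PVM (68.2 and 57.7 CPM).

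Cacna1c, the main neuronal L-type pore (chr6:118587240-119196418, minus strand), was highest among the neuron labels in Sst (1546 and 1362 CPM). L2/3 IT CTX-1 held 1199 and 1103 CPM, L5 PT 758 and 694 CPM and Vip, the lowest, 568 and 678 CPM. At 2300 UMIs per nucleus 91.8% of Sst nuclei held a UMI of it, against 16.8% of Micro-PVM nuclei. Cacna1d, the other L-type pore (chr14:30039939-30491455, minus strand), was lowest in L5 PT (168 and 203 CPM). Its highest label was L6 CT in the male library (406 and 292 CPM) and Vip in the female (373 and 650.1 CPM). Vip has few nuclei and 46 and 117 UMIs of it. Micro-PVM nuclei held more of it than each of the 9 labels in both libraries, 595 and 657 CPM, though in the female library by little over Vip. At matched depth 71.1% of Micro-PVM nuclei held a UMI of Cacna1d, against 33.9% in L5 PT and 66.2% in Vip. At 1000 UMIs per nucleus, which keeps more of the Micro-PVM nuclei, the shares were 43.4, 18.1 and 46.7%, so Micro-PVM and Vip are not ordered.

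The T-type genes were unevenly placed, and Cacna1g and Cacna1h were the lowest of the 10 genes per length. Cacna1i (chr15:80287238-80398279, plus strand) was at 159 and 143 CPM in L2/3 IT CTX-1 and 139 and 115 CPM in L4/5 IT, at 90.8 and 150.4 CPM in L6 CT, at 53.9 and 55.5 CPM in L5 PT, and at 4.73 and 7.74 CPM in Pvalb, a level like that of Micro-PVM (8.02 and 5.35 CPM). In Vip it was represented by 0 and 1 UMIs. Cacna1g (chr11:94408391-94474198, minus strand) was highest in L4/5 IT (44.5 and 57.7 CPM, from 23 and 41 UMIs), above every other label in both libraries, and had 0 and 3 UMIs in Pvalb. Cacna1h (chr17:25374285-25433783, minus strand) had at most 25 UMIs in any neuron label and library. Its 22 and 58 UMIs over all neuron labels came to 3.69 and 5.25 CPM, under the 10.4 and 9.78 CPM of barcodes not called as nuclei.

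Of the 10 genes the α2δ genes had the smallest adjusted p in the test among neuron labels, given below. Cacna2d1 (chr5:15934691-16374511, plus strand) reached 753 and 610.0 CPM in L2/3 IT CTX-1 and 654 and 545 CPM in L4/5 IT. It was at 249.9 and 215 CPM in L5 PT, 51.5 and 45.2 CPM in Sst and 28.4 and 21.7 CPM in Pvalb, both under Micro-PVM (82.2 and 55.8 CPM). Vip stood apart from the other interneurons with 268 and 256 CPM. Cacna2d3 (chr14:28904943-29721864, minus strand) led in Sst (1439.6 and 1221 CPM), was at 879.5 and 814 CPM in L5 PT, and was no higher than about the Micro-PVM level (100.3 and 83.7 CPM) in L6 CT (76.4 and 85.3 CPM) and Pvalb (37.8 and 55.7 CPM). Sst thus held the highest level of one α2δ gene and, next to Pvalb, the lowest of the other.

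The 250 bases upstream of the annotated starts of these α2δ genes are shown because these genes differ in the neurons that hold them, Sst being the highest label for one and near the lowest for the other (RefSeq, GRCm38.p6, 5′ to 3′ along the gene). Capitals mark the GC box GGGCGG on either strand, a letter match only. The first lies at chr5:15934441-15934690 on the plus strand and the second at chr14:29721865-29722114 on the minus strand.
Cacna2d1: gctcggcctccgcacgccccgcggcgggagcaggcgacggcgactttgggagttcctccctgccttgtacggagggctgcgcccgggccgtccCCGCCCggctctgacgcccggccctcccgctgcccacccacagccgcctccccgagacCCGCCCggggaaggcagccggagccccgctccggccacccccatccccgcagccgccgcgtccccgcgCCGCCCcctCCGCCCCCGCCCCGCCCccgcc
Cacna2d3: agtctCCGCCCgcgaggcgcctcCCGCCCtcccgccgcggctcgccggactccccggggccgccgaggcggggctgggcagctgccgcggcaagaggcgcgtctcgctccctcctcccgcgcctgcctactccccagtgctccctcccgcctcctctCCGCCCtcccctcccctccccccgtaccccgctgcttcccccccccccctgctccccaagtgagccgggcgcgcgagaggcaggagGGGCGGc
They hold 6 and 4 GC boxes, and G and C make up 82.4% of the first, against a median of 52.4% over all promoters. Of the 10 genes 7 had an upstream window in the table, in 10 windows in all. Of these windows 5 held a GC box, as did 32.7% of the 32851 windows of all genes. None held the CRE TGACGTCA (1.55% of all windows did) or the AP-1 site TGACTCA (4.46%), searched because ATF3 and its partners bind such sequences. That says only that these letters are not in these windows.

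**Figure D2:**
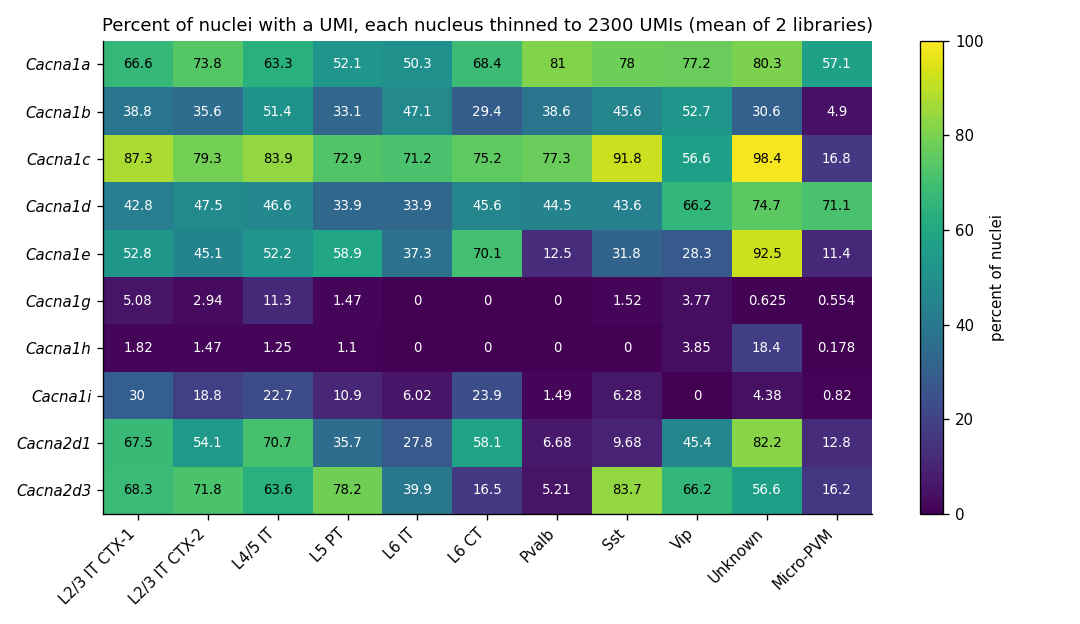
Percent of nuclei with at least 1 UMI of each gene after each nucleus was thinned to 2300 UMIs (mean of the 2 libraries), by population; shallower nuclei were left out. Cacna1e was found in 58.9% of L5 PT and 12.5% of Pvalb nuclei, Cacna2d3 in 83.7% of Sst and 5.21% of Pvalb nuclei, and Cacna1h in 18.4% of Unknown nuclei.

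Thinning matters for these shares, since the libraries differ in depth. Over all neuron labels 52.8 and 68.0% of nuclei held a UMI of Cacna1e at full depth, and 43.2 and 47.9% at 2300 UMIs. In Micro-PVM nuclei, with medians of 1298.5 and 3012.5 UMIs, the shares were 9.11 and 17.8% at full depth and 10.3 and 12.6% at 2300 UMIs. Of the neuron-label nuclei 385 and 117, and of the Micro-PVM nuclei 1496 and 649, were shallower and were left out of the thinned values.

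The background was read in 2 ways, from Micro-PVM nuclei and from barcodes of at most 100 UMIs that were not called as nuclei. For those barcodes the deposited headers name another version of the counting software than for the nuclei. For 8 of the 10 genes the Micro-PVM level was under the pooled neuron level in both libraries, as with Cacna1c (105 and 88.2 against 1014 and 929 CPM over all neuron labels). The exceptions were Cacna1a, in the female library, and Cacna1d, in both. Micro-PVM nuclei also held more of these genes than barcodes outside nuclei in both libraries. For Cacna1a they held 612 and 876 against 493 and 597 CPM, and for Cacna1d 595 and 657 against 226 and 315 CPM. Their Micro-PVM level is therefore not read as background. The barcodes outside nuclei held 534 and 535 CPM of Cacna1c, 255 and 287 CPM of Cacna1e and 331 and 307 CPM of Cacna2d1, so RNA outside nuclei held these transcripts too. Neuron labels below the level outside nuclei in both libraries numbered 8 of 9 for Cacna1h and 5 for Cacna2d1 (L5 PT, L6 IT, Pvalb, Sst and Vip). There were 3 each for Cacna1e (L6 IT, Pvalb and Sst), Cacna1g (L5 PT, L6 IT and Pvalb) and Cacna2d3 (L6 CT, L6 IT and Pvalb). Cacna1a and Cacna1d were below it in L5 PT and L6 IT, and Cacna1i in Pvalb and Vip, while Cacna1b and Cacna1c were below it in no label. The part of RNA from outside nuclei in the lower levels, L5 PT among them, was not tested.

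**Figure D3:**
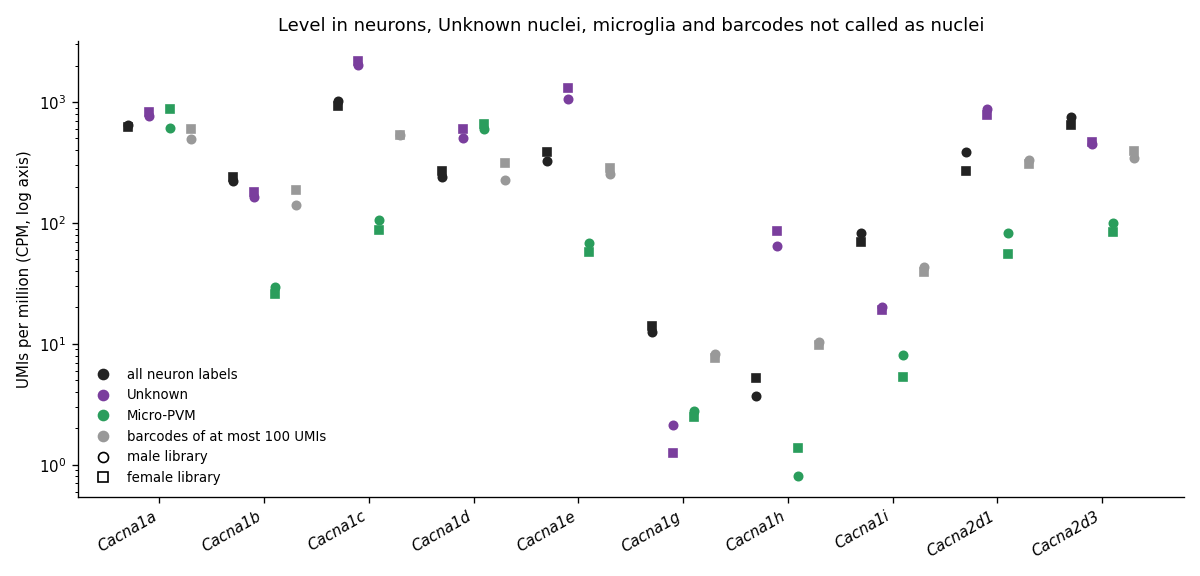
Level of each gene (CPM, log axis) over all neuron labels, in Unknown nuclei, in Micro-PVM nuclei and in barcodes of at most 100 UMIs; circles are the male and squares the female library. Cacna1d was above the pooled neuron level in Micro-PVM nuclei in both libraries (595 and 657 against 242 and 269.6 CPM) and Cacna1a in the female one (876 against 625 CPM), and Cacna1h was highest in Unknown nuclei.

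The tests used edgeR's quasi-likelihood F test on the 20 sums of 10 populations in 2 libraries, over 9673 genes, with Benjamini-Hochberg adjustment; a gene was called at an adjusted p below 0.05. All 10 genes passed the filter on low counts. Fold changes are log2 with SE from the F statistic, n = 2 libraries per population. The p-values measure the spread between the sums of 2 pools of mice. Because the labels were mapped from the same counts, tests between labels are partly circular and their p-values are no independent evidence. Among the 9 neuron labels, 35.8% of all genes tested were called, and 9 of the 10 channel genes. The smallest adjusted p values were those of Cacna2d1 (3.68e-13), Cacna2d3 (1.1e-11) and Cacna1i (3.04e-09). Cacna1h missed the threshold (adjusted p = 0.0651) and passed it with the library as a block (0.011), with DESeq2 (0.0434) and with no filter on low counts (0.00177). An alternative left out nuclei holding 3 or more microglial UMIs, which removed 17.6 to 36.6% of the nuclei of a neuron label in the male and 63.6 to 97.7% in the female library. Under it Cacna1a (0.192), Cacna1b (0.329), Cacna1c (0.0924) and Cacna1d (0.294) lost this call, and Cacna1g and Cacna1h were not tested.

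L5 PT neurons were compared with the mean of both L2/3 IT labels, since the study is about how layer V and layer II/III neurons fare after injury. Of the 10 genes 4 were lower in L5 PT and 1 was higher. The R-type gene Cacna1e was the higher one, at 437 and 630.2 CPM in L5 PT against 349 and 376 CPM in L2/3 IT CTX-1 and 273 and 269 CPM in L2/3 IT CTX-2. L5 PT lay above both L2/3 IT labels in each library, with a log2 difference of 0.87 ± 0.22 (adjusted p = 0.00744). The α2δ gene Cacna2d1 was lower by the most certain margin, at 249.9 and 215 CPM against 753 and 610.0 CPM and 442 and 406 CPM, with no overlap (log2 -1.12 ± 0.17, adjusted p = 3.66e-05). The T-type gene Cacna1i was lower by about as much, at -1.01 ± 0.23 (adjusted p = 0.00431). Cacna1g was at -1.80 ± 0.52 (adjusted p = 0.0211), from 7 and 20 UMIs in L5 PT. Cacna1a, the P/Q-type pore, was lower too, at -0.59 ± 0.17 (adjusted p = 0.0185).

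Over all genes tested, 5.25% were called lower and 7.08% higher in L5 PT. The median of the 10 genes was -0.46, against 0.02 over all genes tested. The remaining genes did not pass. Cacna1c was at -0.48 ± 0.17 (adjusted p = 0.0698; 0.0059 with the library as a block, 0.00116 by DESeq2 and 0.0211 without TMM factors) and Cacna1d at -0.45 ± 0.22 (0.222; 0.0464 with the block and 0.0458 at 2300 UMIs per nucleus). Cacna2d3 was at 0.31 ± 0.19 (0.359). Cacna1b was at -0.05 ± 0.18 (0.93), a ratio of 0.969 with an interval of 2 SE from 0.754 to 1.24. Without a filter on low counts Cacna1a lost its call (-0.55, 0.0628), and at 2300 UMIs per nucleus Cacna1g did (-1.48, 0.38). Without nuclei holding 3 or more microglial UMIs, the calls of Cacna1a (-0.29, 0.799), Cacna1e (0.51, 0.497) and Cacna1i (-1.18, 0.0754) were lost, the last with a larger fold than before, and Cacna1g was not tested.

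The other calcium genes came from 4 lists chosen with earlier results of these data known, and each one named below passed the test, with an adjusted p of at most 0.0403. Of 10 tested genes of the other calcium channel subunits 3 were lower in L5 PT and none higher. All 3 are γ subunits that also escort AMPA receptors: Cacng4 (-3.70 ± 0.95), Cacng3 (-1.91 ± 0.47) and Cacng2 (-1.46 ± 0.19). Cacng4 had few UMIs in L5 PT, at 1.22 and 0.289 CPM, so the size of its fold is not exact. Of 20 genes of presynaptic release 6 were lower and 2 higher. The vesicle priming gene Unc13c (-3.38 ± 0.48), the active zone gene Rims3 (-2.43 ± 0.44) and the complexin gene Cplx2 (-2.02 ± 0.36) were lower. Cplx1 was higher (1.52 ± 0.29). In 1 library alone Cplx2 was at -1.02 (male) and -2.71 (female). Of 18 genes of calcium stores, pumps and exchangers 5 were lower and 1 higher. The ryanodine receptor genes, which release stored calcium, went opposite ways: Ryr3 was higher (2.32 ± 0.26; 483 and 558 CPM in L5 PT against 60.8 and 70.7 CPM in L2/3 IT CTX-1 and 70.9 and 277 CPM in CTX-2) and Ryr2 lower (-1.31 ± 0.21). Also lower were the pump gene Atp2b4 (-1.75 ± 0.39) and the store-operated channel gene Orai2 (-1.30 ± 0.31). Of 22 genes of calcium-dependent signalling 3 were lower, the kinase genes Camk4 (-1.69 ± 0.33) and Camk2d (-1.40 ± 0.18) and the calcineurin gene Ppp3ca (-0.75 ± 0.16). List medians ran from -0.31 to -0.18. With the library as a block 5 signalling genes were called. Without nuclei holding 3 or more microglial UMIs the calls of Cacng3 (-1.28), Cplx1 (1.34), Cplx2 (-0.92), Atp2b4 (-1.38), Camk4 (-1.17) and Ppp3ca (-1.11) were lost.

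**Figure D4:**
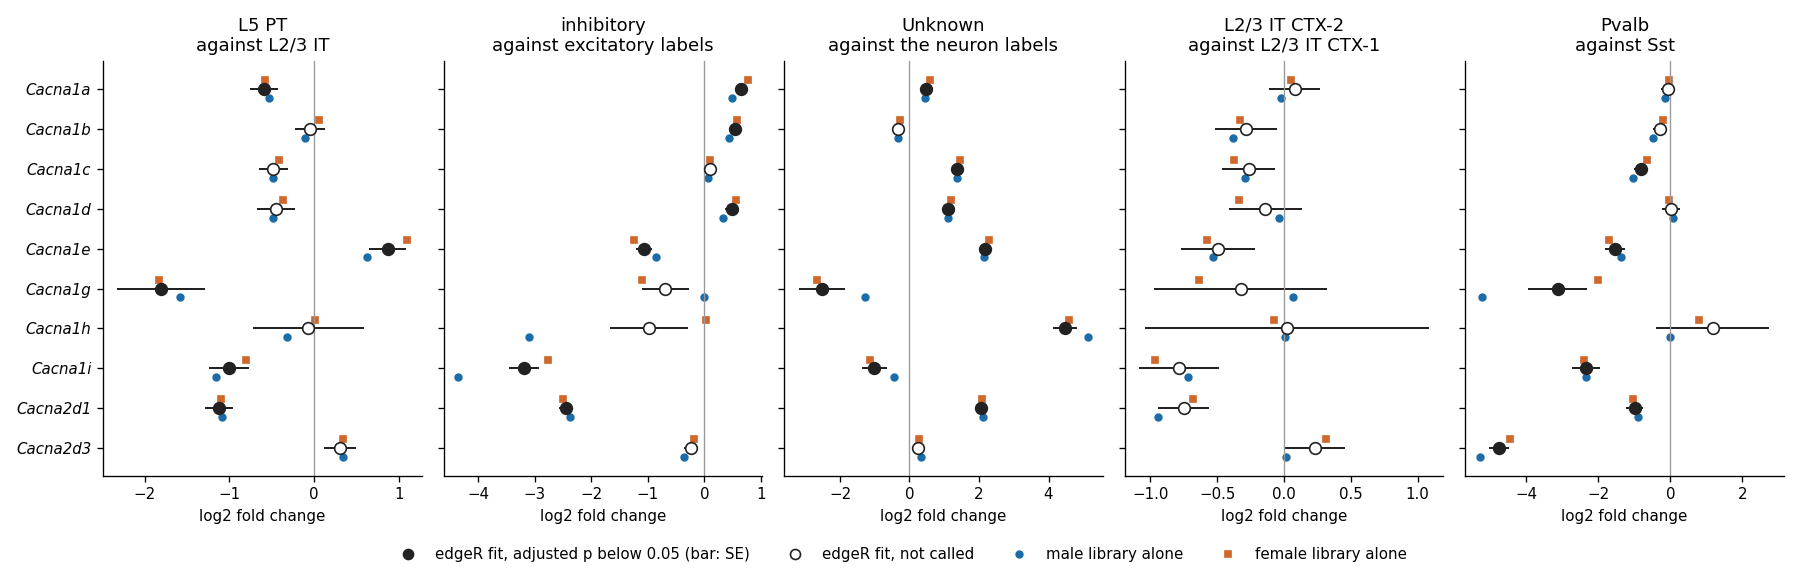
Log2 fold change of each gene in 5 comparisons (edgeR fit, bars are SE; filled symbols have an adjusted p below 0.05) with the ratio of each library alone. Cacna1e was higher in L5 PT than in L2/3 IT (0.87) and lower in inhibitory than excitatory labels (-1.07); Cacna1h was far higher in the Unknown nuclei (4.48).

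The inhibitory labels were compared with the excitatory ones, mean against mean. The excitatory side includes L6 IT, whose inhibitory markers summed to 346 and 149 CPM and excitatory ones to 221 and 173 CPM. Its part in these differences was not tested. Of the 10 genes 3 were higher and 3 lower. The P/Q-type Cacna1a (0.65 ± 0.09, adjusted p = 1.31e-05), the N-type Cacna1b (0.54 ± 0.11, 0.000702) and the L-type Cacna1d (0.48 ± 0.13, 0.00748) were higher in interneurons. The T-type Cacna1i (-3.18 ± 0.27, 2.2e-09), the α2δ gene Cacna2d1 (-2.45 ± 0.12, 9.92e-14) and the R-type Cacna1e (-1.07 ± 0.15, 4.57e-06) were lower. Over all genes 11.1% were called higher and 11.8% lower.

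In both libraries each Cacna1i value of an inhibitory label (0 to 43.1 CPM) was under each value of an excitatory label (45.2 to 159 CPM). The same held for the Pvalb and Sst values of Cacna2d1 but not for Vip, whose 268 and 256 CPM were above L5 PT. Nor was Cacna1a cleanly split, since L4/5 IT (789 and 760.4 CPM) exceeded Vip (641 and 733 CPM). Cacna1c was not called (0.10 ± 0.10, adjusted p = 0.534, a ratio of 1.07 with an interval of 2 SE from 0.933 to 1.23). Among the neuron labels its level was highest in Sst and lowest in Vip. Cacna2d3 (-0.23 ± 0.12, 0.193) was not called either, with Sst and Pvalb at its extremes; it was called lower without TMM factors (0.0382). Cacna1g (-0.69, 0.265) and Cacna1h (-0.98, 0.35) were not called. The calls of Cacna1a (0.45, 0.216), Cacna1b (0.27, 0.443) and Cacna1d (0.40, 0.205) were lost without nuclei holding 3 or more microglial UMIs.

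Among 10 tested genes of the other calcium channel subunits 2 were higher and 2 lower in the inhibitory labels, where 11.1% and 11.8% of all genes were. The third α2δ gene, Cacna2d2, was at 85.1 and 92.9 CPM in Pvalb and 51.5 and 70.9 CPM in Sst but at most 25.1 CPM in the excitatory labels (2.30 ± 0.41, adjusted p = 0.000141). Vip was within the excitatory range, at 24.3 and 16.7 CPM. Cacng2 was higher (0.56 ± 0.12), and the β subunit genes Cacnb1 (-0.76 ± 0.26, adjusted p = 0.0403) and Cacnb2 (-0.38 ± 0.12) were lower. Of 20 release genes tested 4 were higher and 6 lower. Unc13c (3.05 ± 0.47) and Cplx1 (1.52 ± 0.20) were higher, and Unc13b (-2.13 ± 0.20) and the syntaxin gene Stx1a (-2.03 ± 0.26) lower. Among the inhibitory labels Unc13c was high in Sst alone, at 789 and 583 CPM against 6.31 and 8.78 CPM in Pvalb.

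Of the genes of stores, pumps and exchangers 9 of 18 were lower in the inhibitory labels and 2 higher, with a median of -0.53. Itpr1, the IP3 receptor gene, was lower (-2.002 ± 0.16), with at most 156 CPM in an inhibitory label against 212 to 368 CPM in the excitatory ones. The pump gene Atp2b4 was also lower (-2.63 ± 0.40). The sodium-calcium exchanger genes went opposite ways, Slc8a1 lower (-1.54 ± 0.13) and Slc8a3 higher (1.48 ± 0.12). Of 22 signalling genes tested 4 were lower and 1 higher, where 11.8% and 11.1% of all genes were. The lower ones included the potassium channel gene Kcnn3 (-2.82 ± 0.51), Camk4 (-2.49 ± 0.28) and Camkk2 (-0.99 ± 0.19), and Camk2d was the higher one (1.41 ± 0.10). With the library as a block 8 signalling genes were called. The call of Cacnb1 was lost by DESeq2 (-0.77) and with no filter on low counts (-0.77), those of Cacng2 (0.48), Camkk2 (-0.83) and Kcnn3 (-3.06) at 2300 UMIs per nucleus, and those of Cacnb2 (-0.38) and Cacng2 (0.53) without nuclei holding 3 or more microglial UMIs.

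Pvalb and Sst, the largest interneuron labels, differed in 6 of the 10 genes, each lower in Pvalb. Over all genes 3.45% were called lower in Pvalb and 3.68% higher. Cacna2d3 was 26.9-fold lower (log2 fold change -4.75 ± 0.27, adjusted p = 3.63e-11), the widest margin of the 10. The T-type Cacna1i was at 4.73 and 7.74 CPM in Pvalb against 25.1 and 43.1 CPM in Sst (-2.33 ± 0.39, 0.000208). Cacna1g was lower as well (-3.12 ± 0.81, 0.0148), from 0 and 3 UMIs in Pvalb and 13 and 11 in Sst. The R-type Cacna1e was at 85.1 and 70.2 against 215 and 229 CPM (-1.54 ± 0.28, 0.000485). The L-type Cacna1c was lower by 0.81 on the log2 scale (SE 0.19, 0.00804) and Cacna2d1 by 0.99 (SE 0.24, 0.0103).

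The release channels were not called. Cacna1a had a Pvalb to Sst ratio of 0.951, with an interval of 2 SE from 0.736 to 1.23, and Cacna1b one of 0.817, from 0.62 to 1.08. Cacna1d had a ratio of 1.01, from 0.721 to 1.43. The calls of Cacna2d1 (-0.80, adjusted p = 0.447) and Cacna1g (-4.50, 0.191) were lost at 2300 UMIs per nucleus. Without nuclei holding 3 or more microglial UMIs 4 calls were lost while the folds kept their sign: Cacna1c was at -0.81 (0.488), Cacna1e at -1.33 (0.0821), Cacna1i at -1.36 (0.489) and Cacna2d1 at -0.81 (0.721); Cacna1g was not tested. In the lists, Cacng3 (-2.37 ± 0.54), Unc13c (-6.34 ± 0.40), Rims3 (-2.43 ± 0.65), Atp2b4 (-3.19 ± 0.76), Ryr3 (-2.41 ± 0.44), Ryr2 (-1.48 ± 0.23), Slc8a3 (-1.28 ± 0.18) and the transcription factor gene Nfatc2 (-2.37 ± 0.57) were lower in Pvalb. Atp2b4 (1.58 and 1.55 CPM) and Rims3 (1.58 and 3.1 CPM) had few UMIs in Pvalb. Nfatc2 was at 3.15 and 4.13 CPM in Pvalb and 26.4 and 16.7 CPM in Sst, against 177 and 202 CPM in Micro-PVM. The part of microglial RNA in this difference was not tested. By list, 1 of 10 other subunits, 2 of 20 release genes, 5 of 18 store and exchanger genes and 1 of 22 signalling genes were lower in Pvalb, and 2 store and exchanger genes were higher. With the library as a block 4 release and 3 signalling genes were called. The calls of Atp2b4 (-2.64) and Rims3 (-2.96) were lost at 2300 UMIs per nucleus, and those of Atp2b4 (-2.28), Rims3 (-2.95) and Cacng3 (-2.24) without nuclei holding 3 or more microglial UMIs.

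The Unknown nuclei held the highest levels of 4 genes in both libraries and differed from the mean of the neuron labels in 8 of 10. Of these 6 were higher and 2 lower. Cacna1h was higher by a fitted log2 of 4.48 ± 0.34 (adjusted p = 9.31e-11), at 64.9 and 86.4 CPM from 61 and 137 UMIs. The neuron labels reached at most 10.0 CPM (male) and 27.8 CPM (female). Some of their sums held 0 UMIs of it, and 8 of 9 labels lay below the level outside nuclei in both libraries. The size of this fold is therefore not exact. Cacna1e (1062 and 1313 CPM; 2.17 ± 0.16, 3.73e-11) and Cacna2d1 (872 and 777 CPM; 2.05 ± 0.12, 4.49e-13) were above every neuron label in both libraries. So was Cacna1c (2028 and 2174 CPM; 1.36 ± 0.13, 4.23e-09). Cacna1d (1.10 ± 0.16, 6.82e-06) and Cacna1a (0.48 ± 0.13, 0.00524) were higher than the mean, but Pvalb and Sst held more Cacna1a in both libraries, and Vip more Cacna1d in the female one. Over all genes 20.7% were called higher and 16.5% lower.

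The T-type genes Cacna1i (20.2 and 18.9 CPM; -1.01 ± 0.35, 0.0253) and Cacna1g (2.13 and 1.26 CPM; -2.52 ± 0.67, 0.00382) were lower in the Unknown nuclei. By level, Cacna1g was highest in L4/5 IT and Cacna1h in the Unknown nuclei, while Cacna1i was highest in L2/3 IT CTX-1 in the male and in L6 CT in the female library. Cacna1g rests on 2 UMIs in each library, and both T-type calls were lost at 2300 UMIs per nucleus (-0.69, 0.886 for Cacna1g and -0.71, 1 for Cacna1i). Without nuclei holding 3 or more microglial UMIs, Cacna1a (0.37, 0.427) and Cacna1i (-0.54, 0.998) were not called, and Cacna1g and Cacna1h were not tested. Cacna1b was not called (-0.34 ± 0.16, 0.096; 0.0247 with the library as a block), nor Cacna2d3 (0.24 ± 0.16, 0.285). Leaving out TMM factors moved the median of all genes in this comparison by -0.13; Cacna1b was then called lower (0.00973), and the 6 higher genes kept their direction.

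Of 10 other subunits tested 5 were higher and 2 lower in the Unknown nuclei, where 20.7% and 16.5% of all genes were. Cacnb2 was at 1069.8 and 1017 CPM against at most 361 CPM in a neuron label (2.48 ± 0.13), and Cacng3 was higher (2.15 ± 0.25). Cacna2d2 (-2.92 ± 0.58) and Cacng4 (-3.29 ± 1.13) were lower, the latter from few UMIs (0 and 0.631 CPM in the Unknown nuclei). In 1 library alone Cacna2d2 was at -4.73 (male, with 0 CPM in its Unknown nuclei) and -2.21 (female). Of 20 release genes tested 9 were higher and 4 lower, with Cplx2 (3.02 ± 0.19), Unc13a (2.18 ± 0.16) and Rimbp2 (2.17 ± 0.12) higher and Stx1a (-2.16 ± 0.37) lower. Of 18 store and exchanger genes tested 10 were higher and 3 lower, led by Slc8a2 (3.75 ± 0.18), Ryr1 (3.22 ± 0.52), Orai2 (2.82 ± 0.18) and Ryr2 (2.57 ± 0.13). Of 22 signalling genes tested 9 were higher and 3 lower. Camkk1 (3.21 ± 0.30), Ppp3ca (2.21 ± 0.11) and Camk2a (2.04 ± 0.13) were higher, and Camk2d was lower (-2.82 ± 0.19). The call of Cacna2d2 was lost without nuclei holding 3 or more microglial UMIs (-5.04).

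The L2/3 IT labels were compared with each other, as both hold layer II/III neurons. None of the 10 genes was called by edgeR, with 2 at an unadjusted p under 0.05 and 1 called by DESeq2. Over all genes 0.258% were called higher and 0.0827% lower in L2/3 IT CTX-2. Cacna2d1 was at 442 and 406 CPM in CTX-2 against 753 and 610.0 CPM in CTX-1 (-0.75 ± 0.19, adjusted p = 0.104). It was called with the library as a block (0.0145) and by DESeq2 (0.00538). Cacna1i was at -0.78 ± 0.30 (0.409). The 6 microglial markers were at 76.4 and 133 CPM in CTX-2 and 72.2 and 32.7 CPM in CTX-1, and their part in these values was not tested. Unc13c was the only gene of the 4 lists called, higher in CTX-2 (2.68 ± 0.48, adjusted p = 0.0105). Its call was lost at 2300 UMIs per nucleus (2.58). In 1 library alone it was at 1.68 (male) and 3.44 (female). With the library as a block 2 release genes, 1 store and exchanger gene and 3 signalling genes were called.

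The nearest patterns were sought by Pearson correlation of log2(CPM + 1) over the 18 sums of the neuron labels, as a description; the sums share 2 libraries and differ in depth. Closest to Cacna2d1 were Arpp21 (r = 0.956), Gabrb1 (0.946) and Col4a2 (0.941). Closest to Cacna1i were Actn1 (0.935), Smad3 (0.933) and Tom1l1 (0.931), and to Cacna1e Pex5l (0.93), Klhl3 (0.918) and Cdh11 (0.899). Cacna1g lay nearest Sphkap (0.898), Cpne9 (0.815) and Kcnb2 (0.800), and Cacna2d3 nearest the glutamate receptor gene Grm7 (0.885), Lingo2 (0.858) and Cdh8 (0.851). For Cacna1a these were the axonal protein gene Cntnap2 (0.885), Cadm2 (0.873) and Pkia (0.828), and for Cacna1c Asic2 (0.857), the active zone gene Erc2 (0.815) and Cop1 (0.797). Cacna1d was nearest Pogz (0.880), Fam49a (0.880) and Sntg1 (0.868). Among the genes near Cacna1b were Zfp518a (0.806) and Arhgap22 (0.791), and Cacna1h, with few UMIs, was nearest Tle2 (0.786), Pgbd5 (0.784) and Incenp (0.780). No member was among the nearest 3 genes of another.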

How the data were processed

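Nuclei from 2 pools of 4 mice were sequenced with 10X Genomics 3′ v3 chemistry. The authors counted UMIs with CellRanger (introns included; reference GRCm38 pre-mRNA) and deposited raw UMI counts per gene and barcode, unnormalized. The methods name version 7.0.1 and the submitters' processing notes 3.1.0. The headers of the filtered matrices, used for the nuclei, name 7.0.1 (male) and 7.0.0 (female). Those of both raw matrices, which hold the barcodes not called as nuclei, name Cell Ranger 4. The effect of this difference on the levels outside nuclei was not tested. Labels come from the deposited table of nuclei, made by the authors in Seurat by mapping to a motor cortex reference. The deposited SCTransform matrix was not used. No doublet step is given in the sources used here and none was run.

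UMIs were summed per population and library and tested with edgeR 4.0.16 (R 4.3.3; TMM, filterByExpr by population, glmQLFit and glmQLFTest, no block), with DESeq2 1.42.0 as an alternative; SE is the absolute log2 fold change over the root of F. The common dispersion was 0.029. In simulated counts for L5 PT against L2/3 IT (9673 genes), 36% of genes changed by 1 and 84% of those changed by 2 on the log2 scale were recovered. Levels and shares used Python 3.11.15, numpy 2.4.6, scipy 1.17.1, pandas 2.3.3 and matplotlib 3.10.9, with seed 1 for thinning to 2300 or 1000 UMIs. Intervals are 95% (exact Poisson), cover counting error only, and a count of 0 allows up to 3 counts. The library pairs the populations, because its sums share a pool of mice; over 45 pairs of populations the library differences correlated at 0.022 to 0.445 (median 0.16).

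The labelled nuclei held 10823136 and 23127444 UMIs, and the sums from 123248 (Vip, male) to 3457660 (L5 PT, female), so Vip is the least precise label, followed by L2/3 IT CTX-2 (183301 and 256087). Positions are from GENCODE on GRCm38. No counted gene overlaps a channel gene on its strand; 6 of the 10 are overlapped on the other strand.

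Channel genes and lists were chosen with earlier results of these data known. Named were the 10 genes, up to 4 called genes per list and comparison with the largest fold change, and the 3 most correlated genes; a result that needs a withheld item is not reported here. Alternatives were the library block, DESeq2, no TMM factors, no filter, 1 library alone (log2 ratio with 0.5 CPM added), thinned nuclei, and nuclei without microglial UMIs.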

Additional observations from a re-analysis of the deposited data

Results flagged for a closer look

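All 10 genes had UMIs in VLMC nuclei, which no test of the report uses. Of these genes 4 were above the Micro-PVM nuclei in both libraries, with Poisson intervals that do not overlap. Cacna1c was at a mean of 378 CPM there (273 and 483 CPM, against 105 and 88.2 CPM in Micro-PVM), from 133 and 485 UMIs in 113 and 161 nuclei. Cacna2d1 was at 155 CPM and Cacna2d3 at 152 CPM. Cacna1g was at 42.8 CPM (34.9 and 50.7 CPM), above every neuron label but L4/5 IT in the means. Barcodes outside nuclei held more than VLMC nuclei of Cacna1c (534 and 535 CPM), Cacna2d1 (331 and 307 CPM) and Cacna2d3 (344 and 396 CPM) in both libraries, and less of Cacna1g (8.28 and 7.61 CPM). These differences were not tested beyond their counting intervals.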

How the results depend on the processing

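Of 337 fold changes of the 10 genes in refitted alternatives, 300 kept their direction and their side of the threshold, 18 lost a call, 10 gained one and 9 changed sign. Of their 100 ratios in 1 library alone, which have no test, 8 had the opposite sign, 1 was 0 and 6 moved by more than the spread. No called fold change of the 10 genes changed sign in either. Of 373 refitted values of the named list genes 353 kept direction and side and 20 lost their call, and of 110 single-library ratios 10 moved; none changed sign. With the library as a replicate block the genes called rose to 1068 for Pvalb against Sst (690 before) and to 132 for L2/3 IT CTX-2 against CTX-1 (33 before), where 1 channel gene was then called. The other calls of the 10 genes that the block changed stand in the report, as do the list counts it moved by over 1.5 times. DESeq2 called 78 genes in the latter, 1 of them a channel gene, and no filter on low counts 118. Nuclei thinned to 2300 UMIs gave 1936 calls among the neuron labels, 657 for L5 PT, 1128 for inhibitory labels, 2101 for Unknown, 12 for L2/3 IT CTX-2 and 437 for Pvalb, with 5787 genes tested.

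Leaving out nuclei with 3 or more microglial UMIs removed up to 97.7% of the nuclei of a neuron label. That left 4356 genes tested and 1258, 330, 723, 1488 and 227 calls (all labels, L5 PT, inhibitory, Unknown, Pvalb), with 4, 1, 3, 4 and 1 channel genes. Chosen after seeing the data, leaving out nuclei with 2 or more UMIs of the 6 microglial markers kept the direction and side of the threshold of 49 of 50 fold changes of the 10 genes.

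In the refits the sign changed for Cacna1b in L5 PT (0.016 without microglial UMIs), for Cacna1a in Pvalb (0.024, thinned) and Cacna1d in Pvalb (-0.015 without nuclei with 2 or more UMIs of the 6 markers), and in L2/3 IT CTX-2 for Cacna1a (-0.0042 without the filter, -0.071 without microglial UMIs), Cacna1d (0.097, thinned), Cacna1h (-0.059 without the filter, -0.11, thinned) and Cacna2d3 (-0.028, thinned); none was called, and the cause was not tested. The male library alone gave the opposite sign for Cacna1g in inhibitory labels (0.0014, against -0.69 in the fit) and L2/3 IT CTX-2 (0.065) and for Cacna1a in the latter (-0.026). The female library alone did so for Cacna1b (0.061) and Cacna1h (0.014) in L5 PT, Cacna1h in inhibitory labels (0.026, against -0.98) and L2/3 IT CTX-2 (-0.075) and Cacna1d in Pvalb (-0.048). The 6 that moved did so without the female library: Cacna1i was at -4.35 and Cacna2d3 at -0.36 in inhibitory labels, Cacna1i at -0.46, Cacna1g at -1.28 and Cacna1h at 5.14 in Unknown nuclei, and Cacna2d1 at -0.94 in L2/3 IT CTX-2. Depth limits Cacna1g and Cacna1h, which have few UMIs.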
